A study of Mus musculus with 32 samples.

Results

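Kidney RNA of miR-155-/- mice killed 72 h after cisplatin was compared with that of miR-155-/- mice killed 48 h after it. The arrays were chosen by their titles, which name the genotype and the time, and make 8 of the 32 arrays of the series, 4 at each time. The 72 h group held 4 male miR-155-/- mice of the strain B6.Cg-Mir155tm1.1Rsky/J, and the 48 h group 4 further males of that strain. Each of these mice had received 1 injection of 20 mg/kg cisplatin at an age of 12 to 16 weeks, and each array held whole ground kidney from a separate animal. Every cell of these mice lacks the gene, so the loss of miR-155 and the drug are shared by both groups. C57BL/6 wild type males from another supplier, 4 at 72 h and 4 at 48 h, were treated alike and serve as a comparison. Saline-injected mice of both genotypes stand for 0 h and are used only where the 4 times are shown together.

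Cisplatin is a platinum drug that crosslinks DNA. It is taken up by the proximal tubule, the part of the nephron that reabsorbs phosphate, glucose and amino acids and burns fatty acids for energy. Injured tubule cells lose transporters and switch on secreted injury proteins, and fatty acid oxidation in the tubule is under the control of the lipid-sensing nuclear receptor PPAR alpha. The miR-155 gene gives a microRNA that is induced in activated immune cells and shortens the life of messenger RNAs that pair with its seed. Its sequences are printed to show what the mice lack, in RefSeq's spelling for GRCm38.p6, with the seed (bases 2 to 8) in capitals. The 5p strand, the main product, lies on chromosome 16 at chr16:84714143-84714165 and the 3p strand at chr16:84714182-84714202, both on the plus strand.
mmu-miR-155-5p: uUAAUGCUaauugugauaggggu
mmu-miR-155-3p: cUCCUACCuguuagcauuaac
No probe was named for this microRNA or its host transcript, so its loss was not checked here.

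Values are given as scaled intensity, the deposited processed signal divided by the 75th percentile of its array and multiplied by 1000. Probes well above background made up 68.0% to 81.8% of those on the 8 arrays, and the defining kidney markers Lrp2, Slc34a1, Umod, Slc12a1, Slc12a3, Aqp2, Nphs1 and Kap were well above it on every one. The number of arrays limits the precision. An array of each of 2 miR-155-/- groups stood apart. On 48 h replicate 3, 6513 of 23743 genes lay over 2-fold from the mean of the other 3 arrays of the group, against 907 to 1311 genes on those 3 and 257 to 1484 on the 72 h arrays. It correlated with its group at 0.957 to 0.961, where the other 48 h pairs reached 0.994. In the 24 h group, which enters only the estimate of the spread, 4820 genes of replicate 3 lay over 2-fold from the other 3 arrays, and it correlated with them at 0.962 to 0.978. Counts of called genes are therefore given with and without 48 h replicate 3, and so are single genes that lose or gain a call.

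On that array the haemoglobin genes Hba-a1 and Hba-a2 had scaled intensities of 25838 and 89205, where the other 48 h arrays lay at 106.5 to 1123 and at 350.2 to 4107. Hbb-bt, Hbb-b2 and Hbb-bs, copies so alike that their probes may share signal, and Grp, Cryba2 and Fam71f2 were likewise farthest above the rest of the group. Farthest below were the proximal tubule lactate transporter Slc5a12 (728, against 17054 to 20716 on the other 48 h arrays), the vitamin D hydroxylase Cyp24a1 (248.0, against 5706 to 8532), the protease inhibitor Serpina10, Acnat2, Gria3, Kcnip2, Atp13a4 and Gm6614. These genes were picked for this distance, so it is a description of the array. On 24 h replicate 3, too, Hba-a2 was the highest of its group, at 25432 against 2189 to 7278 on the other 3 arrays, and Cyp24a1 the lowest, at 186 against 2899 to 7646.

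**Figure D1:**
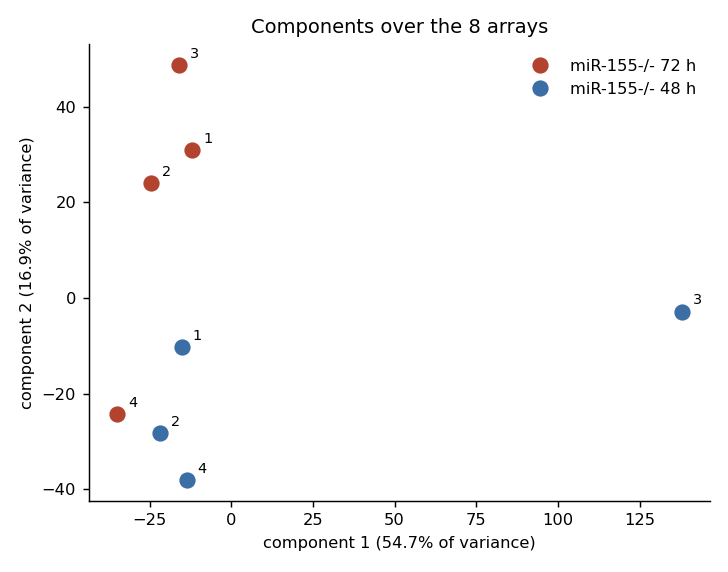
Position of the 8 miR-155-/- arrays on the first and second principal components over all genes with a value on each array, red for 72 h and blue for 48 h, numbered by replicate. 48 h replicate 3 lies at 138 on the first component, the other 7 arrays between -34.99 and -11.94, and 72 h replicate 4 lies among the 48 h arrays on the second.

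With limma, and Benjamini-Hochberg adjustment over all genes, 1483 of 23743 genes passed an adjusted p of 0.05 between 72 h and 48 h (6.25%), and are called here. Of these 751 were higher (3.16%) and 732 lower (3.08%) at 72 h, and 416 changed at least 2-fold. Leaving out 48 h replicate 3, 1047 genes were called (4.41%), 503 higher (2.12%) and 544 lower (2.29%). The 2 calls shared 764 genes, 51.5% of the first and 73.0% of the second, and all 1483 kept their sign. Leaving out 24 h replicate 3, 2068 genes were called, the 1483 among them, and leaving out both arrays 1884. The 4 and 4 values did not overlap for 1311 of the called genes and for 12.1% of all genes. All 4 arrays of the 72 h group lay at the same position of their slides, which held only 1 of the 48 h arrays. With position as a covariate 396 genes were called, and the part of position in the other calls was not tested. Of the 60 called genes named here, 39 were not called in that fit, among them Fgb, Fgg, Saa2, Cp, Clu, Spp1, Slc34a1, Slc7a13, Acsm2 and Miox, while Cyp4a14, Ucp2, Plin4, Lrg1, Saa1, C3 and Ldc1 were. Fitted on the 8 arrays alone, without the spread of the other 24 arrays, 16 genes were called, and 56 of the 60 were not. Lrg1, Ldc1, Smcp and Slco2a1 were.

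Some members of a list of fatty acid oxidation and PPAR alpha genes rose at 72 h. The list also holds genes outside oxidation itself, such as Ucp2 and Angptl4, and is named fatty acid oxidation for short below. Of its 23 tested genes 11 rose and 0 fell (47.8% called, all genes 6.25%). All 23 stood above 0, with a median log2 difference of 0.61 (all genes tested, 0.00). In the fit lacking 48 h replicate 3, 13 rose and 0 fell, with a median of 0.74, and 9 of them were the same genes. Cpt2 and Acaa1b were lost and Plin2, Pdk4, Acot2 and Slc25a20 gained.

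Cyp4a14, a fatty acid omega-hydroxylase and classic PPAR alpha target, had scaled intensities of 36189, 71264, 60822 and 59089 on the 72 h arrays, against 4048, 11447, 980.4 and 7046 on the 48 h arrays. The groups did not overlap, and 48 h replicate 3 was the dimmest of all. Cyp4a14 rose 13-fold (log2 3.71 ± 0.70, adjusted p = 0.00184, ± being the standard error). Without 48 h replicate 3 its difference was 3.0 (adjusted p = 0.00927). The Cyp4a genes are close copies, so that this probe may also report its neighbours.

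Ucp2, a carrier of the inner mitochondrial membrane, had 1111, 1838, 1926 and 1074 on the 72 h arrays, against 420.4, 683, 388 and 650.0 on the 48 h arrays, again without overlap, and rose 2.76-fold (log2 1.47 ± 0.24, adjusted p = 6.29e-04). Members also called with all 8 arrays, and named after their values were seen, were Cyp4a10 (1.68), Cyp4a31 (1.57), the lipase inhibitor Angptl4 (1.2), the peroxisomal enzymes Ehhadh (0.93) and Acaa1b (0.75), and Cpt1a (0.52) and Cpt2 (0.43), which carry fatty acids into mitochondria. Enzymes of the mitochondrial beta-oxidation spiral, also picked after their values were seen, were not called, with differences of 0.07 for Hadha, 0.15 for Acadm and 0.27 for Acadl. Ppara, the receptor gene, was not called either (log2 0.61 ± 0.34, adjusted p = 0.286). Plin4, a lipid droplet coat protein outside the list and among the 10 largest rises of called genes whose groups did not overlap, had 3143, 4016, 4432 and 1464 on the 72 h arrays, against 397, 559, 357 and 717 on the 48 h arrays. The groups were apart, and it rose 6.16-fold (log2 2.62 ± 0.41, adjusted p = 3.14e-04).

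**Figure D2:**
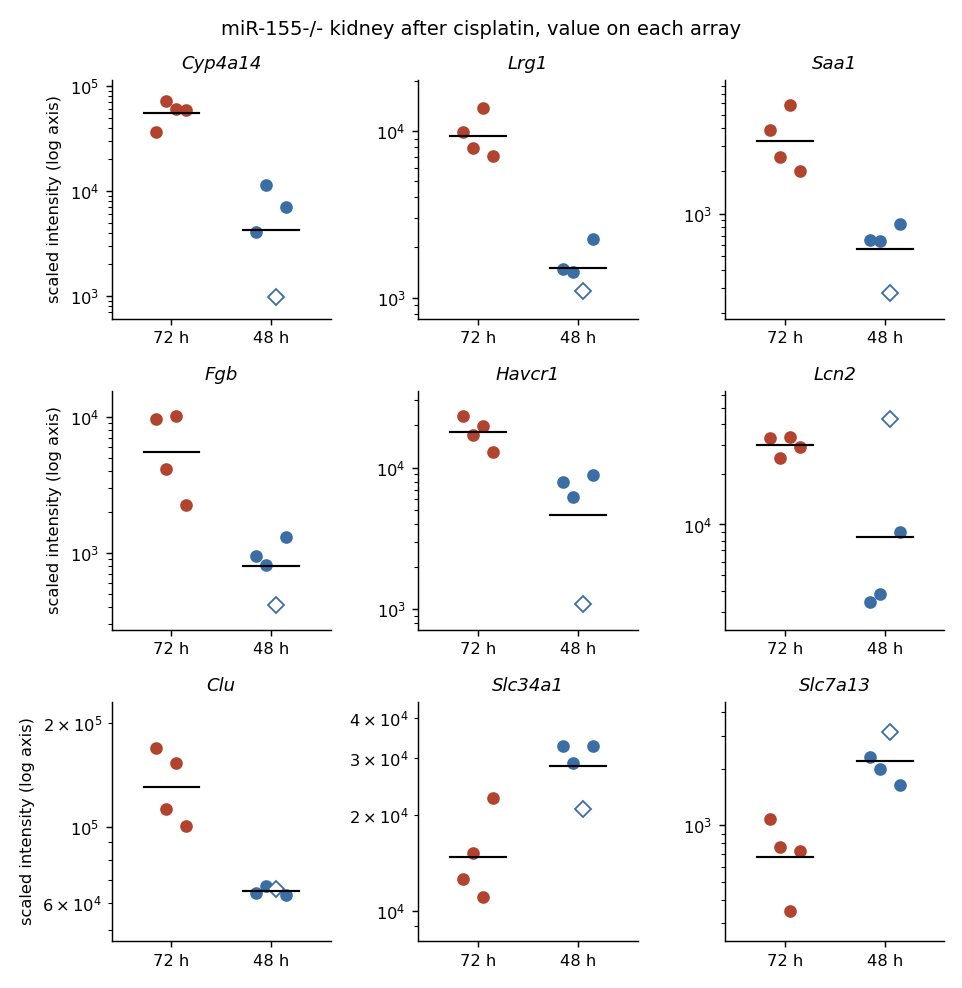
Scaled intensity on a log axis of 9 genes on each miR-155-/- array, 72 h in red left of 48 h in blue, with the geometric mean of the 4 arrays as a line and 48 h replicate 3 as an open diamond. Cyp4a14, Lrg1, Saa1, Fgb, Havcr1 and Clu have all 4 of the 72 h arrays above the 48 h arrays, Slc7a13 has them all below, and Lcn2 and Slc34a1 overlap.

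Some acute phase genes, mostly secreted proteins of the response to interleukin 6, rose beside them. Of 17 such genes 8 rose and 0 fell (47.1% called, all genes 6.25%), with a median of 1.28. Without 48 h replicate 3, 6 of these 8 were called, 0 others and 0 lower (1.24). Lrg1, a leucine-rich secreted glycoprotein, had 9860, 7872, 13788 and 7122 on the 72 h arrays, against 1486.5, 1429, 1102 and 2234 on the 48 h arrays. Its lowest 72 h array was over 3 times its highest 48 h array, and it rose 6.18-fold (log2 2.63 ± 0.33, adjusted p = 4.30e-05). Saa1, a serum amyloid A protein that travels on lipoproteins, had 3918, 2490, 5811 and 2002 on the 72 h arrays, against 655, 646, 275 and 849 on the 48 h arrays, and rose 5.82-fold (log2 2.54 ± 0.46, adjusted p = 0.00129).

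The third component of complement, C3, which tags surfaces for phagocytosis, had 49635, 50786, 45906 and 43927 on the 72 h arrays, against 18090, 12868, 1513.5 and 15232 on the 48 h arrays. The 72 h arrays were close together and all above the 48 h arrays, of which replicate 3 was far the lowest. C3 rose 5.55-fold (log2 2.47 ± 0.47, adjusted p = 0.00212), and log2 1.64 without that array (adjusted p = 0.00194). Cp, the copper-carrying ferroxidase ceruloplasmin, stood at 6548, 6111, 6284 and 5768 on the 72 h arrays, against 3061, 2429, 708 and 3342 on the 48 h arrays, and rose 3.01-fold (log2 1.59 ± 0.34, adjusted p = 0.00548). Its rise was log2 1.08 without 48 h replicate 3 (adjusted p = 0.0198). Saa2, a near-identical copy of Saa1, rose 8.92-fold (log2 3.16 ± 0.81, adjusted p = 0.0185) and was not called without 48 h replicate 3 (2.48, adjusted p = 0.0877). The other 3 were the fibrinogen chains described with the injury markers. Hp, Orm1, Orm2, Lbp, Cfb, Saa3, Itih4, Socs3 and Stat3, the 9 members that did not pass, had differences of 0.00 (Stat3, the factor that carries the interleukin 6 signal) to 1.28 (Itih4). Markers of the liver, the usual source of these proteins, had 3 of 10 higher and 0 lower (all genes, 6.25% called), with a median of 0.75. Their mean log2 value was between -2.58 and -1.90 on the 72 h arrays, against -3.48 to -2.54 on the 48 h arrays. With normexp background correction the liver median was 0.02, with 0 called. The 3 were the fatty acid carrier Fabp1 (log2 2.32 ± 0.65, adjusted p = 0.0301), Serpina1a (log2 0.70 ± 0.21, adjusted p = 0.0481) and the vitamin E carrier Ttpa (log2 1.06 ± 0.29, adjusted p = 0.0252), and 0 were called without 48 h replicate 3. The hepatocyte gene Alb stood at -0.46 (adjusted p = 0.576). The part of liver RNA in the acute phase result was not tested.

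The 250 bases before the starts of genes of the acute phase and fatty acid oxidation lists were searched on both strands for 3 motifs. The C/EBP motif TTGCNNAA was present in 8 of the 13 tested acute phase genes with a RefSeq window, and in 10.8% of all 27025 genes. Saa3 and Orm2 among the 8 were not called, and whether the motif goes with the rise was not tested. The interleukin 6 element CTGGGAA was present in 3 of 13, and in 10.4% of all genes. In the 17 genes of the fatty acid oxidation list with a window, the PPAR-type DR1 repeat was found in 0 (all genes, 2.12%). TTGCNNAA was found in 1 of the 17. The windows show letters and no binding, and sites farther away lie outside them. Printed are the windows' stretches around TTGCNNAA, in capitals, for the 6 called members that carry it and around CTGGGAA for Fgg and Lrg1, read along the gene. They lie at chr3:83025998-83026045 (Fga, plus strand), chr3:83049916-83049963 (Fgb, minus), chr7:46743135-46743182 (Saa1, minus), chr7:46751630-46751677 (Saa2, plus), chr17:57228154-57228201 (C3, minus), chr3:19957159-19957206 (Cp, plus), chr3:83007691-83007723 (Fgg, plus) and chr17:56122022-56122068 (Lrg1, minus) of GRCm38.p6. Fga and Cp carry the motif on the strand opposite to the gene.
Fga: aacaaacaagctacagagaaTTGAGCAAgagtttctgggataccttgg
Fgb: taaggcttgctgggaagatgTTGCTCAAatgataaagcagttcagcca
Saa1: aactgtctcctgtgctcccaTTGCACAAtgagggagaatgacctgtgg
Saa2: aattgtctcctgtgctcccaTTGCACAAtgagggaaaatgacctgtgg
C3: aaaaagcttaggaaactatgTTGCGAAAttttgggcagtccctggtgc
Cp: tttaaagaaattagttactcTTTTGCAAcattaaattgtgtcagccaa
Fgg: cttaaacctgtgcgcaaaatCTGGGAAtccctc
Lrg1: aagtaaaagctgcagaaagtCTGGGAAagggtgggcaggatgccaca
The Fgb stretch also holds CTGGGAA in lower case before the capitals, and the motifs do not overlap there. The Saa1 and Saa2 stretches are nearly the same, as the genes are copies.

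Some tubular injury markers rose too. Of 19 markers 7 rose and 0 fell (36.8% called, all genes 6.25%), with a median of 1.0. Without 48 h replicate 3, also 7 rose and 0 fell (median 1.09), 6 of them the same genes. The fibrinogen beta chain Fgb, a clotting protein that injured tubules make, had 9676, 4138, 10158 and 2240 on the 72 h arrays, against 944, 814, 413.5 and 1296 on the 48 h arrays. The groups were apart, with 72 h replicate 4 the lowest of its group, and Fgb rose 6.86-fold (log2 2.78 ± 0.61, adjusted p = 0.00607). The gamma chain Fgg, far brighter at its own probe, had 69553, 50867, 82746 and 35843 on the 72 h arrays, against 12980, 13125, 1688 and 17395 on the 48 h arrays, and rose 6.77-fold (log2 2.76 ± 0.61, adjusted p = 0.00668). Without 48 h replicate 3, its lowest array, the rise of Fgg was log2 1.99 (adjusted p = 0.0335). Fga, the alpha chain, rose with all 8 arrays (log2 2.14 ± 0.57, adjusted p = 0.0232) and was not called without 48 h replicate 3 (1.45, adjusted p = 0.12).

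Clu, a secreted chaperone, had 169000, 112460, 152940 and 100500 on the 72 h arrays, against 64065, 66976, 65609 and 63421 on the 48 h arrays. The 48 h arrays lay within a narrow band below all 72 h arrays, and Clu rose 2.01-fold (log2 1.01 ± 0.21, adjusted p = 0.00452). Spp1, the matrix phosphoprotein osteopontin, had 224280, 147100, 180430 and 195860 on the 72 h arrays, against 79108, 98497, 123990 and 84767 on the 48 h arrays, and rose 1.94-fold (log2 0.96 ± 0.23, adjusted p = 0.0117). Cd44, its surface receptor, had 479.5, 278, 547 and 189 on the 72 h arrays, against 148, 97.3, 81.8 and 118 on the 48 h arrays, and rose 3.15-fold (log2 1.66 ± 0.38, adjusted p = 0.0088). The remaining called marker, named like Fga after its values were seen, was the calcium-binding protein S100a6 (log2 1.59 ± 0.41, adjusted p = 0.0201).

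Havcr1 and Lcn2, both used as clinical markers, did not pass with all 8 arrays. Havcr1, the tubular injury protein Kim-1, had 23082, 17040, 19896 and 12907 on the 72 h arrays, against 7954, 6197, 1088 and 8831 on the 48 h arrays. All 72 h arrays were above all 48 h arrays, of which replicate 3 was again the lowest, and the difference was 1.93 ± 0.64 (adjusted p = 0.068). Without that array it was 1.23 (adjusted p = 0.303). Lcn2, the iron-siderophore carrier NGAL, had 32964, 25108, 33566 and 29218 on the 72 h arrays, against 3450, 3856, 42824 and 9000 on the 48 h arrays. Here 48 h replicate 3 was the brightest of the 8, so the groups overlapped, and the difference was 1.83 ± 0.68 (adjusted p = 0.103). Without it Lcn2 rose by 2.61 (adjusted p = 0.0148). Krt20, an epithelial keratin, stood at -0.25 (adjusted p = 0.856), and at 0.29 without 48 h replicate 3, where it was brightest.

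**Figure D3:**
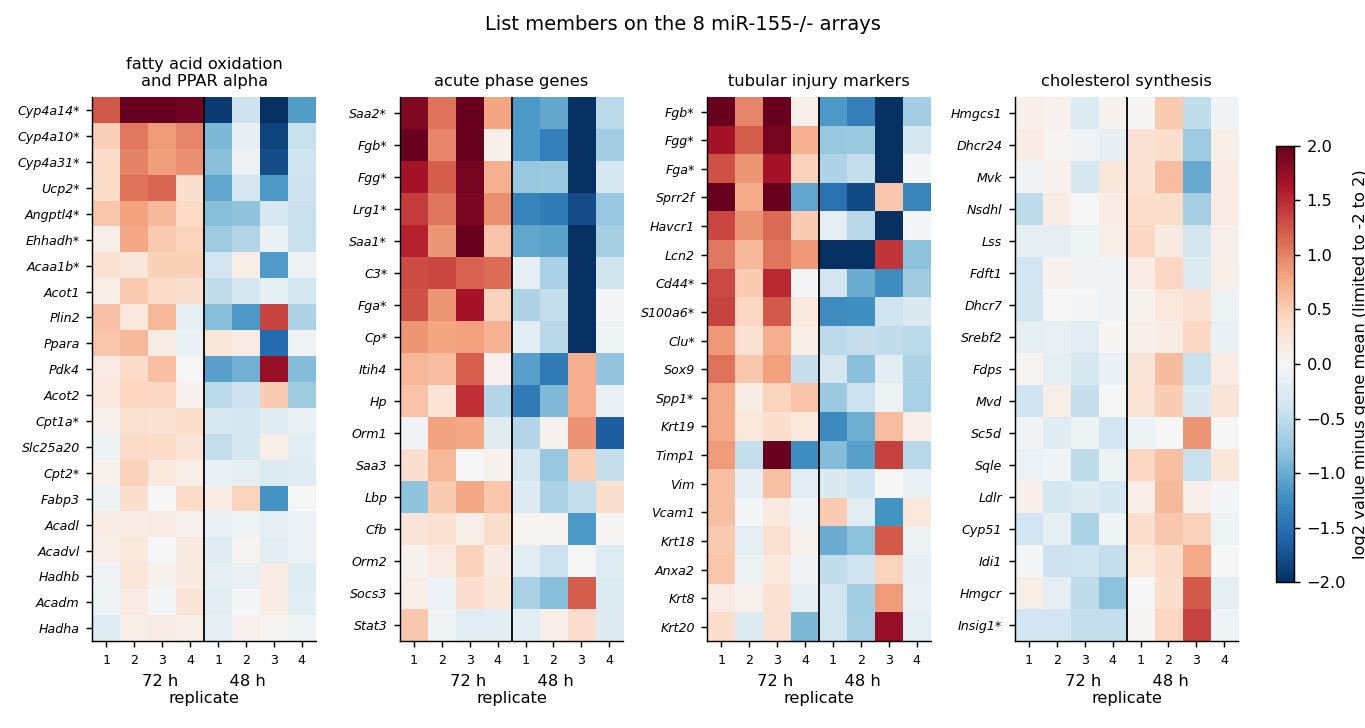
Tested members of 4 gene lists on the 8 miR-155-/- arrays, 72 h left of 48 h, as the log2 value minus the gene's mean over the 8 arrays, red above and blue below it and limited to 2 either way. Stars mark genes with an adjusted p under 0.05. Cyp4a14 and Lrg1 are red on all 72 h arrays, and Insig1 is blue on all of them.

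Cholesterol synthesis genes stood lower. All 18 had a difference below 0, with a median of -0.34, and 2 fell and 0 rose (11.1% called, all genes 6.25%). In the fit lacking 48 h replicate 3, 4 fell (median -0.39). Insig1, which holds the sterol sensor in the endoplasmic reticulum, had 77.2, 77.2, 71.8 and 71.7 on the 72 h arrays, against 101.5, 135, 256 and 94.4 on the 48 h arrays. It fell by 0.86 ± 0.24 on the log2 scale (adjusted p = 0.0289), and was not called without 48 h replicate 3 (-0.55, adjusted p = 0.142). Sqle, Mvd and Fdps of the pathway proper were called then.

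Some genes of the proximal tubule fell. Of 25 markers 4 fell and 0 rose (16% called, all genes 6.25%), 12 stood above 0 and 13 below, and the median was -0.01. Without 48 h replicate 3, on which this list was low, 5 fell and 0 rose, the phosphate transporter Slc34a3 being added, with a median of -0.24. Slc7a13, an acidic amino acid and cystine transporter of the straight segment, had 1076, 763, 349.6 and 729 on the 72 h arrays, against 2299, 2007, 3134 and 1644 on the 48 h arrays. The groups were apart, and it fell by 1.71 ± 0.34 on the log2 scale (adjusted p = 0.00273). Slc34a1, the main phosphate transporter, had 12579, 15233, 11097 and 22580 on the 72 h arrays, against 32738, 29038, 20779 and 32761 on the 48 h arrays. 72 h replicate 4 lay above 48 h replicate 3 and all other 72 h arrays below it, and Slc34a1 fell by 0.94 ± 0.22 on the log2 scale (adjusted p = 0.0107).

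Acsm2, a medium-chain acyl-CoA synthetase, had 22558, 18053, 10252 and 17928 on the 72 h arrays, against 39420, 27903, 55787 and 29864 on the 48 h arrays, and fell by 1.15 ± 0.21 on the log2 scale (adjusted p = 0.00147). Miox, the kidney's inositol oxygenase, had 36902, 29720, 24766 and 48445 on the 72 h arrays, against 60084, 64823, 90397 and 58446 on the 48 h arrays, and fell by 0.99 ± 0.23 on the log2 scale (adjusted p = 0.00878). Neither overlapped between the groups. Lrp2, the endocytic receptor megalin, stood at -0.16 (adjusted p = 0.708). The tissue was ground whole, so that fewer tubule cells and less RNA per cell cannot be told apart. Of 24 distal nephron and collecting duct markers 1 rose, the magnesium channel Trpm6 (log2 0.80 ± 0.24, adjusted p = 0.0434), and 1 fell, the calcium-binding Pvalb (log2 -1.34 ± 0.32, adjusted p = 0.0118). Neither was called without 48 h replicate 3, and the list's median was 0.34 with and -0.07 without it. With all 8 arrays 8.33% of the list was called, and 6.25% of all genes. Umod and Egf, products of the thick limb and distal tubule, stood at 0.89 and -0.15 (adjusted p = 0.076 and 0.788).

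Sdk1, Sox11 and Bves were also among the 10 largest rises of called genes whose groups did not overlap. Sdk1, a cell adhesion protein of the immunoglobulin family, had 53.1, 37.1, 30.9 and 37.3 on the 72 h arrays, against 7.4, 13.7, 1.2 and 5.9 on the 48 h arrays, and rose 7.41-fold (log2 2.89 ± 0.43, adjusted p = 2.63e-04). Its rise was log2 2.20 without 48 h replicate 3 (adjusted p = 1.93e-04). Sox11, a transcription factor of embryonic development, had 137, 88.2, 121 and 79.6 on the 72 h arrays, against 27.4, 22.7, 4.2 and 25.5 on the 48 h arrays, and rose 6.48-fold (log2 2.7 ± 0.51, adjusted p = 0.00212). Bves, a membrane protein that binds cyclic AMP, had 28, 29.3, 33.7 and 13.1 on the 72 h arrays, against 6.5, 3.5, 1.4 and 7.9 on the 48 h arrays, and rose 6.12-fold (log2 2.61 ± 0.67, adjusted p = 0.0185). These 3 were dim, well above background on 4 of 4 arrays at 72 h and 3 of 4 at 48 h, and Bves was not called without 48 h replicate 3 (2.12, adjusted p = 0.0838).

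Of called genes whose groups did not overlap and that were measured at both times, the largest falls were smaller than the largest rises. Ldc1, a leucine decarboxylase, had 442, 317, 209 and 347.5 on the 72 h arrays, against 1295, 1263, 1445 and 946 on the 48 h arrays, and fell by 1.95 ± 0.25 on the log2 scale (adjusted p = 5.64e-05). Its groups were far apart on all arrays. Slc22a22, a prostaglandin transporter of the kidney, had 113, 129, 77.7 and 215 on the 72 h arrays, against 522.5, 399, 395 and 453 on the 48 h arrays, and fell by 1.81 ± 0.36 on the log2 scale (adjusted p = 0.00254). Gys2, the liver form of glycogen synthase, had 286.5, 212, 159 and 410.4 on the 72 h arrays, against 893, 724, 877 and 743 on the 48 h arrays, and fell by 1.68 ± 0.35 on the log2 scale (adjusted p = 0.00424). Proz, a vitamin K-dependent plasma protein, fell by 1.64 ± 0.29 on the log2 scale (adjusted p = 0.00119), and Smcp, a protein of sperm mitochondria, fell by 1.58 ± 0.27 on the log2 scale (adjusted p = 8.94e-04). Leap2 and Gm428 have only a bound and no place in this order. Leap2, a secreted antimicrobial and ghrelin-blocking peptide, was well above background on 0 of 4 arrays at 72 h and 3 of 4 at 48 h, so that it was at least 2.19-fold lower at 72 h (adjusted p = 0.00726). The same held for Gm428, at least 1.48-fold lower (adjusted p = 0.0478). Here the mean of the 48 h arrays is set against the lowest signal well above background, or the probe's own where higher. Dppa3, a germ cell protein (log2 -1.65 ± 0.50, adjusted p = 0.047), and the lens crystallin Cryge (log2 -1.58 ± 0.48, adjusted p = 0.0468, well above background on 1 of 4 arrays at 72 h) also fell. Dppa3, Gm428 and Cryge were not called without 48 h replicate 3 (adjusted p = 0.129, 0.177 and 0.238).

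Leaving out 48 h replicate 3 brought further genes forward. Among the 6 largest rises of called genes were then those of Serpina3n, Cyp4a14, Crct1 and Lcn2. Serpina3n, a protease inhibitor, had 142.5, 141.5, 351 and 104 on the 72 h arrays, against 12.6, 9.4, 146 and 39 on the 48 h arrays, and stood at 3.31 without that array (adjusted p = 0.0216) and 2.52 with it (adjusted p = 0.0725). Crct1, an epidermal gene, stood at 2.72 without and 1.98 with it (adjusted p = 0.0357 and 0.12). Among the falls were then the mannose-binding lectin Mbl2 (-2.83), the muscle cytochrome oxidase subunit Cox6a2 (-2.64) and Fam151a (-2.17), each measured at both times. With all 8 arrays their adjusted p was 0.0893, 0.0174 and 0.0896. Gm8765 and the pigment enzyme Dct were well above background on 0 of 4 arrays at 72 h and were at least 3.22-fold and at least 1.18-fold lower with all 8 arrays (adjusted p = 0.0267 and 0.0202), which gives them no rank.

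Among genes of the response to DNA damage 1 was called. Of 30 p53 target genes 0 rose and 1 fell (3.33% called, all genes 6.25%), with a median of -0.16 (-0.01 without 48 h replicate 3). The one was Ei24, an endoplasmic reticulum protein (log2 -0.40 ± 0.10, adjusted p = 0.0175), and it was not called without that array. Cdkn1a, the cell cycle inhibitor p21, had 8691, 8550, 8824 and 6311 on the 72 h arrays, against 8279, 7696, 23337 and 8422 on the 48 h arrays. Only 48 h replicate 3 stood out, and the difference was -0.40 ± 0.29 (adjusted p = 0.434). Mdm2, which targets p53 for degradation, stood at 0.10, and the stress hormone Gdf15 at 0.57 (adjusted p = 0.706 and 0.105). Of 17 immediate early and AP-1 genes 0 were called. Their median was -0.32, and 0.07 without 48 h replicate 3, with Atf3 at -0.88, Fos at -0.32, Fosb at -0.98 and Fosl2 at 0.53 (all 8 arrays).

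Among inflammatory genes 1 of 22 was called (4.55%, all genes 6.25%). Of 22 cytokines, chemokines and adhesion molecules 1 rose, the macrophage growth factor Csf1 (log2 0.99 ± 0.30, adjusted p = 0.0448, and 0.58 with an adjusted p of 0.225 without 48 h replicate 3), and the median was 0.02. Of 16 interferon-stimulated genes 0 were called, with the antiviral genes Rsad2 at -0.52 and Oas2 at 0.96. Of 22 cell death genes 1 rose and 1 fell, the protective Bcl2l1 (log2 0.44 ± 0.13, adjusted p = 0.0471) and the death-promoting Bcl2l11 (log2 -0.96 ± 0.28, adjusted p = 0.0392). Neither was called without 48 h replicate 3 (adjusted p = 0.125 and 0.19). Of the cell death list 9.09% was called. Of 20 genes for DNA replication and cell division, 2 were higher and 0 lower (10% called). Ccnb1, the cyclin of mitotic entry, lay between 45.9 and 112.9 on the 72 h arrays, against 29.2 to 45.8 on the 48 h arrays, and rose 2.17-fold (log2 1.12 ± 0.26, adjusted p = 0.00842). Mki67, a marker of cycling cells, had 313, 328, 325 and 104 on the 72 h arrays, against 129, 103, 106 and 96.6 on the 48 h arrays. 72 h replicate 4 fell among the 48 h arrays while the other 3 were above them all, and Mki67 rose 2.25-fold (log2 1.17 ± 0.32, adjusted p = 0.0267). Leaving out 48 h replicate 3, Mki67 was not called (adjusted p = 0.0556) and the mitotic kinase Plk1 was. The list's median was -0.07, and 0.34 without 48 h replicate 3.

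In metabolism and stress defence single genes moved (all genes, 6.25% called). Of 18 genes of glycolysis and glucose production 2 rose and 1 fell, with a median of 0.10. Hk2, the inducible hexokinase, rose 3.02-fold (log2 1.59 ± 0.47, adjusted p = 0.0378). Pck1, which commits carbon to glucose synthesis, had 158560, 167820, 177300 and 174720 on the 72 h arrays, against 100090, 90635, 14229 and 95886 on the 48 h arrays. All 72 h arrays were higher, and it rose 2.86-fold (log2 1.51 ± 0.37, adjusted p = 0.0137), and log2 0.83 without 48 h replicate 3 (adjusted p = 0.0223). The glycolytic Tpi1 fell by 0.32 ± 0.10 on the log2 scale (adjusted p = 0.0465). Hk2 and Tpi1 were not called without that array (adjusted p = 0.0538 and 0.0865). Of 17 Nrf2 and glutathione genes 1 rose, the carbonyl reductase Cbr3 (log2 1.0 ± 0.23, adjusted p = 0.00921), and 2 fell, the glutathione synthetase Gss (log2 -0.41 ± 0.10, adjusted p = 0.0114) and the glutathione transferase Gsta4 (log2 -0.48 ± 0.12, adjusted p = 0.0114). The haem oxygenase Hmox1 stood at 0.10 (adjusted p = 0.888). In the oxidative phosphorylation list 0 of 16 were called (Uqcrc1 -0.22, Uqcrc2 -0.19).

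Further lists held 0 called genes with all 8 arrays, where 6.25% of all genes were called. These were the unfolded protein and integrated stress response (15 genes, Sdf2l1 -0.51, Xbp1 0.29), heat shock (13, Dnajb1 -0.36, Hsph1 -0.45), cisplatin transport and metal handling (18, Abcb1a -0.48, Slc22a5 0.47), and the circadian clock (15, Clock 0.20, Cry2 -0.40). So were the EGF receptor ligands (10, Nrg1 0.69, Tgfa 0.51), cornified envelope genes (15, Krt5 -1.3, Sprr2g 1.46) and the near-identical major urinary protein genes (8, Mup20 1.23, Mup3 1.24). The genes in brackets are those with the smallest p in each. In the fit lacking 48 h replicate 3, the metallothionein Mt1 was called in the cisplatin transport list.

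Published miR-155 targets, messengers reported to rise when the microRNA is lost, face its absence at both times. Of 25 tested 2 rose and 0 fell (8% called, all genes 6.25%), with a median of 0.08. Myo1d, an unconventional myosin, was called (log2 0.55 ± 0.12, adjusted p = 0.00753), also without 48 h replicate 3. In the list of genes linked to the knocked-out locus or to the strains, App, the amyloid precursor protein, rose (log2 0.60 ± 0.12, adjusted p = 0.00355) and the mitochondrial ribosome gene Mrpl39 fell (log2 -0.67 ± 0.13, adjusted p = 0.00274), of 15 tested.

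Few markers of blood and of other cells were called (all genes, 6.25%). Of 10 red blood cell markers 1 fell, the membrane protein Epb42 (log2 -1.54 ± 0.27, adjusted p = 8.94e-04), with a list median of -2.19 and -0.89 without 48 h replicate 3. Of 7 platelet markers Itga2b fell (log2 -0.50 ± 0.15, adjusted p = 0.0400, and an adjusted p of 0.0858 without that array). Of 17 macrophage and monocyte markers 0 were called (Mrc1 0.88, Itgam -0.58), with a median of 0.31, and -0.23 without it. The same count of 0 held for 9 neutrophil (S100a8 0.92, S100a9 1.07), 12 endothelial (Flt1 0.42, Kdr 0.29) and 16 fibroblast and matrix markers (Acta2 0.36, Col15a1 -0.31). It held for 11 lymphocyte markers with all 8 arrays (Cd3d -0.67, Nkg7 0.28), where Cd3d fell without 48 h replicate 3 (-1.12, adjusted p = 0.046). Of 10 podocyte markers 1 rose and 0 fell. Adipocyte (7, Cfd -1.68, Adipoq -1.26), adrenal cortex (4, Akr1b7 -0.96, Star -0.37), urothelial (10, Krt5 and Gata3 0.34) and skeletal muscle markers (3, Acta1 0.51, Tnnc2 -0.75) had 0 called. In muscle 5 of 10 markers were well above background on none of the 8 arrays, and in the adrenal list Cyp11a1 and Cyp11b1 were not.

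**Figure D4:**
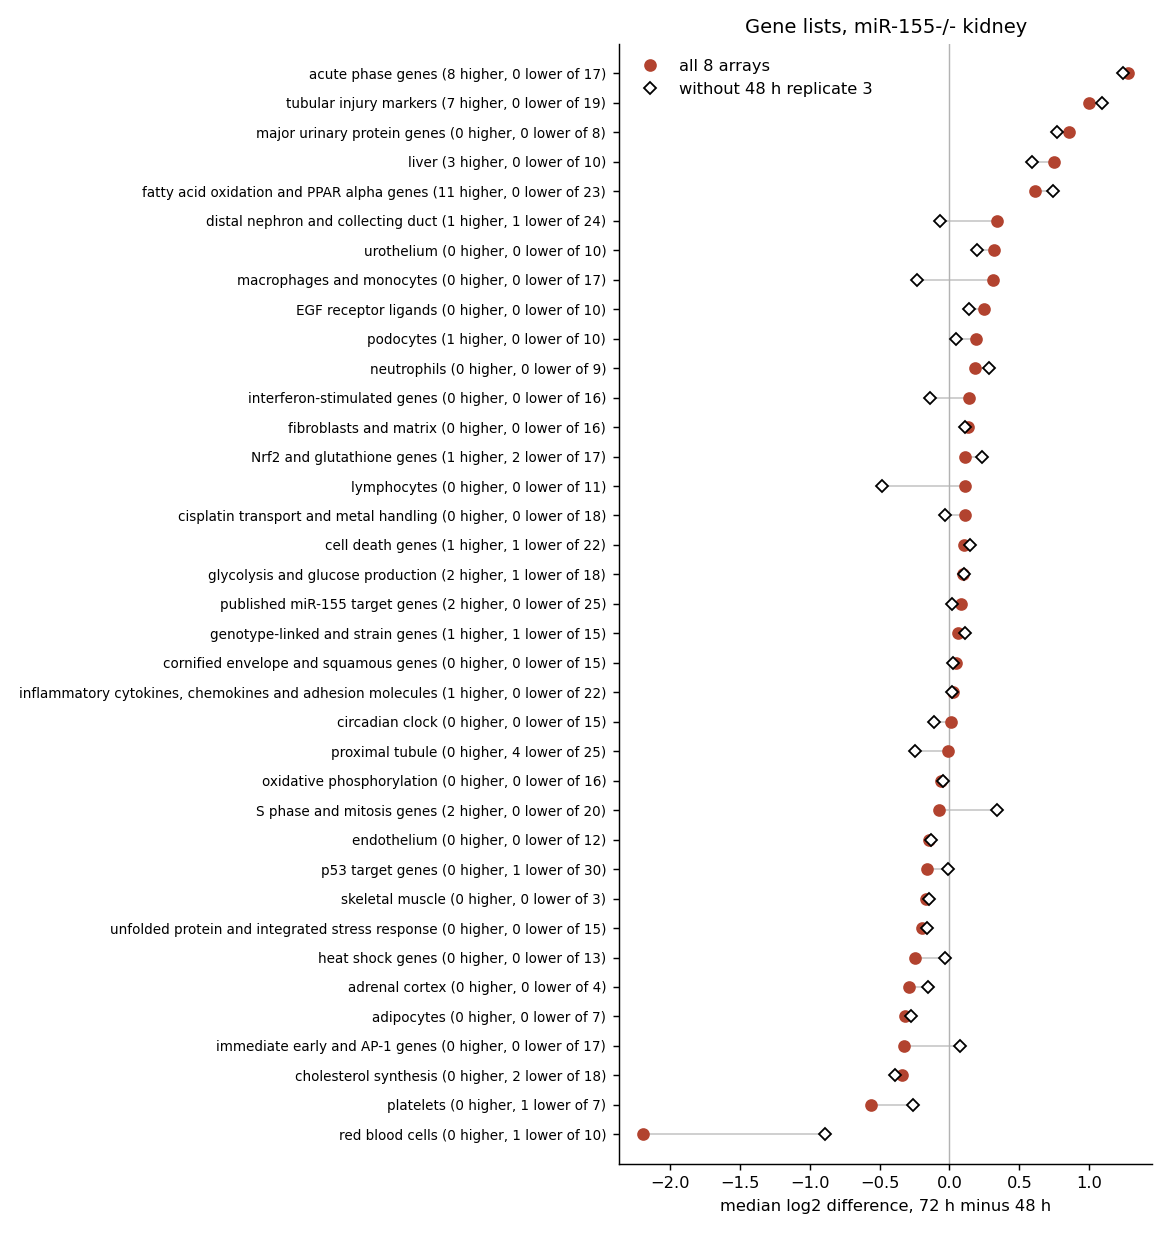
Median log2 difference between 72 h and 48 h in miR-155-/- kidney for 37 gene lists, with all 8 arrays (red) and without 48 h replicate 3 (open diamonds), and beside each name the counts of members called with all 8 arrays. The acute phase, injury marker and fatty acid oxidation lists keep a median above 0.5 either way. The red blood cell median is -2.19 with and -0.89 without the array.

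Arrays of both groups met on 2 slides and on 2 scan days, and the leading lists were compared within them. The fatty acid oxidation median was 0.75 and 0.62 within the 2 days, and 0.93 and 0.58 within the 2 slides, 1 array of each group a slide. For acute phase genes it was 1.57 and 0.79 within days, and 1.49 and 1.49 within slides. Injury markers had 1.39 and 0.67 within days. They had 0.89 on the slide without 48 h replicate 3 and -0.22 on the slide with it. For cholesterol synthesis the values were -0.49 and -0.21 within days and -0.25 and -0.07 within slides. At the position shared by all 72 h arrays, where 48 h replicate 4 is the only 48 h array, the 4 medians were 0.69, 1.1, 1.04 and -0.21.

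The genotypes were then compared over the same step. In wild type kidney 207 genes were called between 72 h and 48 h (0.872%), 157 higher (0.661%) and 50 lower. Of these, 189 were among the miR-155-/- calls, 91.3% of the wild type calls and 12.7% of the miR-155-/- ones. Of the 1483 genes called in miR-155-/- kidney 97.6% had the same sign in wild type kidney, against 72.2% of all genes. The wild type 72 h arrays lay at slide positions 3, 4, 3 and 3, and the wild type 48 h arrays at 2, 4, 3 and 2. The part of position in this shared sign was not tested. The difference between the genotypes, (miR-155-/- 72 h minus 48 h) minus (wild type 72 h minus 48 h), was called by limma for 0 of 23743 genes (0%). An unadjusted p under 0.05 was reached by 507 of the 23743, and by 465 without 48 h replicate 3. Each count is a smaller share of the genes than the 0.05 that such a threshold gives where no gene differs. A larger number of calls in miR-155-/- kidney is thus not shown to be a larger change.

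The list medians in wild type kidney were 0.60 for fatty acid oxidation (2 of 23 called, both higher), 0.50 for acute phase genes (1 of 17, higher), 0.25 for injury markers (0 of 19) and -0.10 for cholesterol synthesis (0 of 18). Ucp2 rose there (1.01, adjusted p = 0.0345), with a difference between the genotypes of 0.45 ± 0.34 (adjusted p = 0.999). Cyp4a14 stood at 2.26 in wild type kidney (adjusted p = 0.148), with a difference of 1.45 ± 0.98 (adjusted p = 0.999). Lrg1 rose there too (1.78, adjusted p = 0.00547), and Ldc1 fell (-1.56, adjusted p = 0.00218). Fgb stood at 0.25 in wild type kidney, with a difference of 2.53 ± 0.86 (adjusted p = 0.999). For Slc34a1 the wild type value was 0.05 and the difference -0.99 ± 0.31 (adjusted p = 0.999).

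The smallest p of the difference belonged to Angptl7, a secreted angiopoietin-like protein. It had 907, 891, 918 and 442 on the 72 h arrays, against 219, 182, 132 and 249 on the 48 h arrays in miR-155-/- kidney, where the groups were apart and it rose 3.98-fold (log2 1.99 ± 0.29, adjusted p = 1.71e-04). In wild type kidney it stood at -0.32, and the difference was 2.31 ± 0.40 (adjusted p = 0.0982). Gdnf, a growth factor, followed with a difference of 1.32 ± 0.28 (adjusted p = 0.691), then Rmdn2, tied to microtubules, with 0.86 ± 0.19 (adjusted p = 0.859). Pole, the catalytic subunit of a replicative DNA polymerase, had 0.83 ± 0.19 (adjusted p = 0.859), and the prostaglandin transporter Slco2a1 0.79 ± 0.18 (adjusted p = 0.859). Each of these 4 rose in miR-155-/- kidney, by 1.21, 0.89, 0.73 and 1.22 on the log2 scale (adjusted p = 5.78e-04, 2.76e-04, 0.00153 and 9.35e-06).

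**Figure D5:**
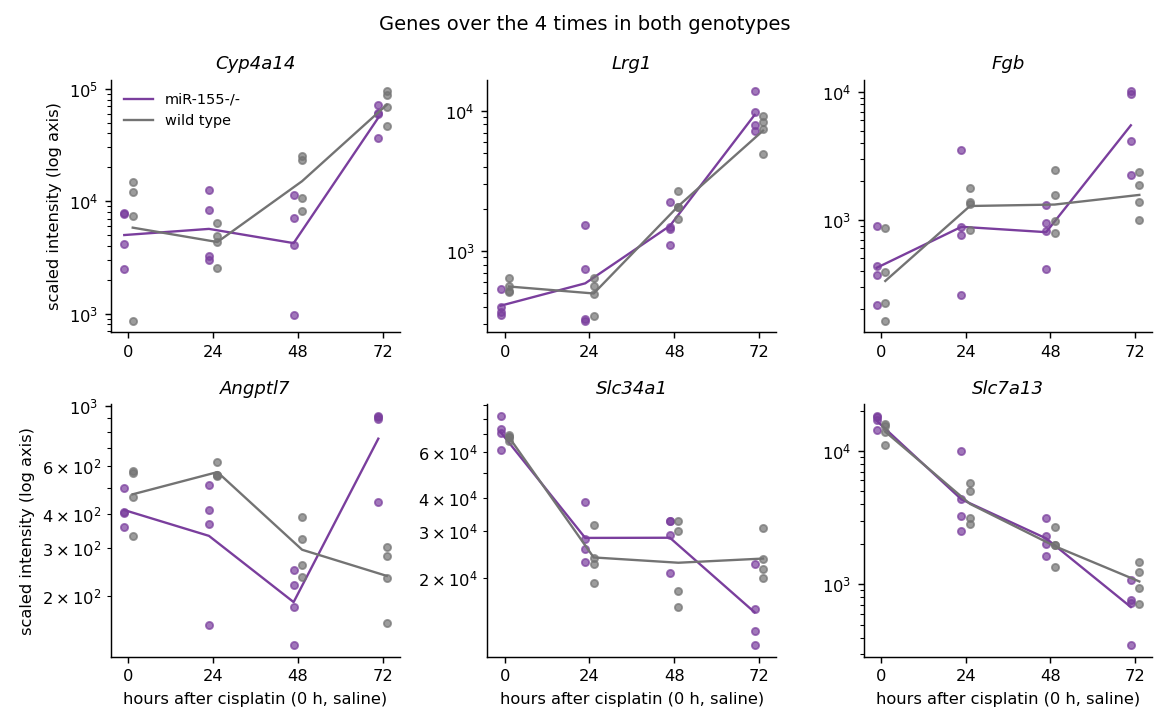
Scaled intensity on a log axis of 6 genes on each array over 0 h (saline), 24, 48 and 72 h, with lines through the geometric means of 4 arrays, miR-155-/- in purple and wild type in grey. Cyp4a14 and Lrg1 are highest at 72 h in both genotypes, Slc7a13 is lower at each later time, and Angptl7 is 756.8 at 72 h in miR-155-/- and 237.4 in wild type kidney.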

How the data were processed

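RNA of whole kidney was hybridised to 32 Agilent 1-colour arrays, 4 for each genotype and time. The deposited intensity values are the processed signals of Feature Extraction 10.7.3.1, background-subtracted and spatially detrended by that program, per the file headers. Other deposited columns mark spots as outliers or as well above background. Spots of a probe were averaged without outlier spots, and log2 intensity minus each array's 75th percentile (1661.9 to 2271.9 on the 8 arrays) was tested. A gene's brightest probe was kept if well above background on all 4 arrays of a group and measured on at least 3 of every group, which left 23743 genes. Limma 3.58.1 in R 4.3.3 fitted 8 group means over 32 arrays, with Benjamini-Hochberg adjustment and a threshold of 0.05. The test was run on simulated data with independent noise of the same spread in every group. These held no divergent array, so they do not show how it behaves with 48 h replicate 3.

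The named genes were a set of injury and damage genes, the 10 largest rises and falls among called genes whose groups did not overlap, the 6 largest each way without 48 h replicate 3, up to 4 called members of each list (or 2 with the smallest p), 5 for the genotype difference, and 8 each way for 48 h replicate 3. Members, lists and rules were chosen with earlier results of these data known. Motifs and lengths came from RefSeq tables of GRCm38.p6. Alternatives covered background, scaling, filters, probes, blocks, weights and left-out arrays. Normexp used median spot signals, and the scan day block, the fits without 24 h replicate 3, and the position, weights and 2-group fits without 48 h replicate 3 were added after seeing the data. Animals were separate mice, so p-values cover the spread between animals and arrays. That spread is pooled over all 8 groups and is not that of the 2 groups compared alone. Some genes that the rule names are not reported here.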

Additional observations from a re-analysis of the deposited data

Results flagged for a closer look

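For 40 of 298 groups of 4 arrays, 1 array stood so far from the others that its gap to the nearest, divided by the range of the group, passed Dixon's critical value. Chance gives about 1 in 20 such groups where they are independent and not picked by their values. Neither holds here, since many of the genes were named by their values and all share the same arrays. The 12 at 72 h and the 28 at 48 h are given with that ratio. At 72 h, replicate 4 was the lowest for Angptl7 (0.959), Atf3 (0.862), Cdkn1a (0.906), Mki67 (0.96), Rmdn2 (0.834) and Tgfa (0.965) and the highest for Cfd (0.854). Replicate 1 was the highest for Sdf2l1 (0.882) and replicate 2 the lowest for Xbp1 (0.865). Among list means, replicate 4 was the lowest for S phase and mitosis genes (0.897). Replicate 1 was the highest for the EGF receptor ligands (0.845) and the lowest for the adrenal cortex (0.886). All 28 at 48 h belonged to replicate 3. It was the lowest for C3 (0.863), Cd3d (0.926), Fam151a (0.927), Fgg (0.875), Flt1 (0.832), Havcr1 (0.831), Leap2 (0.865), Mbl2 (0.912), Mrc1 (0.842), Nrg1 (0.923), Pck1 (0.949), Proz (0.831), Slc22a5 (0.944), Sox11 (0.899) and Ttpa (0.921). It was the highest for Cdkn1a (0.919), Cry2 (0.932), Cryge (0.876), Krt5 (0.859) and Tnnc2 (0.941). Among list means it was the lowest for the lists cisplatin transport and metal handling (0.875), proximal tubule (0.879), endothelium (0.84), macrophages and monocytes (0.956), lymphocytes (0.839) and published miR-155 target genes (0.934), and the highest for Nrf2 and glutathione genes (0.848) and unfolded protein and integrated stress response (0.903).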

How the results depend on the processing

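Called genes numbered 1483. Array weights gave 4432 (4381 without 48 h replicate 3), the array's median for scaling 932 (550 higher, 382 lower), normexp background correction 359 (257 higher, 102 lower, median of all genes -0.14), position as a covariate 396 (455 without 48 h replicate 3), and fitting only the groups compared 16 (1027 without it). The cause was not tested. Quantile normalization, the value table, both other filters on dim probes, outlier spots kept, the probe mean, the slide or scan day as a block and no variance trend gave 1195 to 1967. Leaving out 1 array gave 682 (72 h replicate 3) to 1805 (48 h replicate 1), 795 without 72 h replicate 2. Without 24 h replicate 3 it was 2068 (1884 also without 48 h replicate 3, against 1047 with the 24 h array kept). The genotype difference, 0, became 1 in both of these fits, 5 with array weights, with or without 48 h replicate 3, and 0 to 2 when 1 array was left out. All 1483 genes kept their sign in each setting except normexp (1461), the probe mean (1479) and the stricter filter (1406 of 1406 present). Same-numbered arrays deviated together with correlations of -0.10, -0.00, 0.15 and 0.49, the last for replicate 4, whose arrays share a slide position. The labels name no pairing, and these values do not settle it. The fit with a replicate block called 1460 (difference 0).

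Of 3151 values of 113 named genes over the settings, 26 reversed, 0 of them of called genes. With array weights, and then also without 48 h replicate 3, Cdkn1a was 0.0081 and 0.028, Gata3 -0.039 and -0.042, and Krt20 0.20 and 0.23. With position, Egf was 0.058 and Lrp2 0.037, and without replicate 3 also Cry2 0.050 and Egf 0.10. With the slide as a block, Egf was 0.040, Hmox1 -0.074 and Mdm2 -0.013. Normexp gave Mup3 -0.10 and Tgfa -0.010, and the probe mean Nkg7 -0.27. Krt20 was 0.29 and Star 0.0034 with only the groups compared without replicate 3, and without both replicates 3 of 24 h and 48 h. With 1 array left out, Egf ran from -0.32 to 0.17, Hmox1 from -0.12 to 0.55, Krt20 from -0.52 to 0.29 and Star from -0.60 to 0.0034. The liver list's median ran from 0.02 (normexp) to 0.89 (slide as a block). Genes dim against background have wide errors, and 4 arrays a group limit all values.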

Other observations

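Genes were also set by the length of their RefSeq span, a grouping chosen after values were seen and given as a description. The 384 tested genes of at least 300 kb had a median log2 difference of 0.42 between 72 h and 48 h in miR-155-/- kidney. Of them 58 were higher (15.1%, all genes 3.16%) and 2 lower (0.521%, all genes 3.08%). The 4937 genes under 10 kb had a median of -0.08, with 2.19% higher and 4.70% lower. Without 48 h replicate 3 the median of the long genes was 0.20, with 9.38% higher (all genes, 2.12%). With position as a covariate 6.51% of the long genes were higher, against 0.527% of the genes under 10 kb and 220 of all 23743 genes. In wild type kidney the median of the long genes was 0.20. On the 72 h arrays their median deviation was 0.23, 0.19, 0.27 and 0.30, against -0.00, 0.05, -0.91 and -0.03 on the 48 h arrays. Only replicate 3 was low by this measure at 48 h. Set against 0 h in miR-155-/- kidney, the median of the long genes was -1.53 at 24 h, -1.11 at 48 h and -0.58 at 72 h. These values include replicate 3 of 24 h and of 48 h.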
